A study of Mus musculus with 5 samples.

Results

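The genes described are 9 subunits and readers of the polycomb repressive complexes, found by their symbols among the 32286 features of the count matrices: Ezh2, Ezh1, Eed, Suz12 and Jarid2 of polycomb repressive complex 2 (PRC2), and the chromobox genes Cbx2, Cbx6, Cbx7 and Cbx8 of canonical polycomb repressive complex 1 (PRC1). They were measured by single cell RNA sequencing in 5 synovial sarcoma (SyS) tumors of mice. Every tumor came from an hSS2 mouse, which carries the human SS18::SSX2 fusion as a conditional allele that TATCre protein, injected into the hindlimb of young animals, switches on, so that the fusion was expressed in whichever limb cells took up Cre, and every tumor was harvested at morbidity. The labels name the histology: 2 tumors were BP (biphasic), and MP (monophasic), MP+BP and PD+MP (PD, poorly differentiated) were 1 tumor each. All tumors carried the fusion and no fusion-free tissue was analysed here, so the comparisons run between cell classes and cell-cycle states of the same tumors and, untested or at low power, between labels. The titles of both BP tumors share a number and no source used here says whether they came from 1 animal. P-values therefore speak for these 5 samples only. Between classes or states of the same tumors they measure the spread of the within-tumor differences. Between labels they measure the spread between tumors.

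PRC2 places methyl groups on lysine 27 of histone H3, a mark of silenced developmental genes. EZH2 and EZH1 are its alternative catalytic subunits, EED and SUZ12 form the core with either of them, and JARID2 is an accessory subunit that helps bring the complex to chromatin. Canonical PRC1 reads the mark through a CBX protein, of which CBX2, CBX6, CBX7 and CBX8 are alternatives, and places ubiquitin on histone H2A through its RING subunits. EZH2 is typical of dividing cells and EZH1 of resting ones. SS18::SSX joins a subunit of the BAF chromatin remodeler to the C-terminal tail of SSX, which binds nucleosomes carrying the ubiquitin mark.

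All 9 members are protein-coding genes on the GRCm38 build. Ezh2 lies on the minus strand at chr6:47530139-47595341, Ezh1 on the minus strand at chr11:101191115-101226463, Eed on the minus strand at chr7:89954654-89980983, Suz12 on the plus strand at chr11:79993106-80034123, and Jarid2 on the plus strand at chr13:44729474-44921643. Cbx2 (plus strand, chr11:119022962-119031270) and Cbx8 (minus strand, chr11:119036305-119040969) are neighbors 5035 bases apart. Cbx6 (minus strand, chr15:79823896-79834688) and Cbx7 (minus strand, chr15:79915807-79971119) are 81119 bases apart. Cbx6 overlaps Npcd and Eed overlaps Gm45120 on the same strand, so reads from the shared stretches could not be assigned to 1 gene and the levels of both are uncertain to that extent. A UMI, or unique molecular identifier, marks 1 captured transcript end, and levels are given as CPM, the UMIs of a gene in a sum of cells scaled by all UMIs of that sum (1 CPM is 1 UMI in 1000000).

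The tumors gave 51670 called cells and 498186066 UMIs, between 89996321 and 118649103 per tumor. After filters on genes, mitochondrial share and doublets, 39559 cells were kept with a median of 7687 UMIs, and clustering without the members or the cell-cycle genes gave 30735 SyS-like cells (77.7%), 3873 macrophage-like, 2421 endothelial-like, 1252 pericyte-like, 398 dendritic-like, 329 T/NK-like, 234 mast-like, 170 neutrophil-like and 147 fibroblast-like cells. The SyS marker list summed to between 3091 and 4285 CPM in non-cycling SyS-like cells and to at most 567 CPM in the comparators. The same list served to name the clusters, so these sums describe the classes and are no check of them. Any 2 tumors shared between 15 and 33 cell barcodes. Cells were called cycling, after thinning to 1500 UMIs, from 4 or more UMIs of fixed S and G2/M gene lists and non-cycling at 1 or fewer. Of the SyS-like cells deep enough to be called, 8436 were cycling (28.2%) and 14858 non-cycling, 6578 lay between and 1239 of the cycling cells lay exactly at the threshold. The cycling share was 18.0% in BP 1, 25.2% in BP 2, 28.7% in MP, 19.4% for MP+BP and 47.7% for PD+MP. Because the share differed between tumors and classes, classes were compared in non-cycling cells.

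Ezh2 was higher in SyS-like cells than in each comparator class, while Ezh1, its alternative, was lower in SyS-like than in endothelial-like and macrophage-like cells. In non-cycling SyS-like cells Ezh2 measured 119.5 CPM in BP 1, 114.9 in BP 2, 105.2 in MP, 87.5 for MP+BP and 252.3 for PD+MP. In the stromal-like class, made of pericyte-like and fibroblast-like cells, Ezh2 measured 57.3, 47.4, 62.1, 59.3 and 32.4 CPM in the same order of tumors. Every SyS-like value stood above every stromal-like value. The fitted log2 fold change was 1.00 ± 0.31 (SE, 5 tumors, adjusted p = 0.043, edgeR). This call was near its threshold, and without BP 1, BP 2, MP or MP+BP, with doublets kept or with at least 1500 genes per cell the adjusted p passed 0.05, reaching at most 0.13. The stromal-like cells of PD+MP were mostly fibroblast-like, with the fibroblast list at 42263 CPM against between 3205 and 5052 in the other tumors, and the part of this in the PD+MP difference was not tested. Genes that set the cycle state also differed between classes in non-cycling cells. Of 30 S-list genes tested, 9 were called higher and 1 lower than in stromal-like cells (median log2 fold change 0.785). Against endothelial-like cells 9 were higher and 2 lower (0.241), and against macrophage-like cells 10 and 3 (0.289). Over all genes 15.4%, 29.0% and 35.9% were higher, so the last 2 counts higher are near that share. Of the G2/M list 3 were higher and 0 lower of 32 against stromal-like cells (0.233). Against endothelial-like cells they were 2 and 4 of 34 (-0.151), and against macrophage-like cells 4 and 13 of 35 (-0.314). The part of either list in the Ezh2 differences was not tested.

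In endothelial-like cells Ezh2 measured 77.1 CPM in BP 1, 64.4 in BP 2, 58.6 in MP, 57.8 for MP+BP and 46.4 for PD+MP. These values also lay below every SyS-like value, with a log2 fold change of 0.66 ± 0.23 (adjusted p = 0.036, edgeR). The PD+MP value rested on 11 Ezh2 UMIs from 30 cells. Without BP 1, BP 2 or MP, with doublets kept or with at least 1500 genes per cell the adjusted p passed 0.05, up to 0.11. Macrophage-like cells measured 26.4, 30.03, 28.0, 27.5 and 42.5 CPM, the lowest of the 3 comparators in each tumor but PD+MP, and the log2 fold change of 1.46 ± 0.16 (adjusted p = 1.4e-05, edgeR) held under all 14 alternatives tried.

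Ezh1 measured 10.6, 9.86, 7.10, 14.0 and 14.9 CPM in non-cycling SyS-like cells of BP 1, BP 2, MP, MP+BP and PD+MP. The endothelial-like values were 19.8, 14.6, 13.6, 22.8 and 29.5 CPM and the macrophage-like values 18.5, 20.1, 15.4, 16.1 and 21.6 CPM. Within each tumor the SyS-like value was the lowest of the 3. Ezh1 was lower by 1.09 ± 0.19 on the log2 scale than in endothelial-like cells (adjusted p = 8.1e-04, edgeR) and by 1.35 ± 0.19 than in macrophage-like cells (adjusted p = 1.2e-04, edgeR). Both calls held under all 14 alternatives. Against stromal-like cells the difference was -0.21 ± 0.28 (adjusted p = 0.61, edgeR), with SyS-like higher in 2 of 5 tumors.

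**Figure D1:**
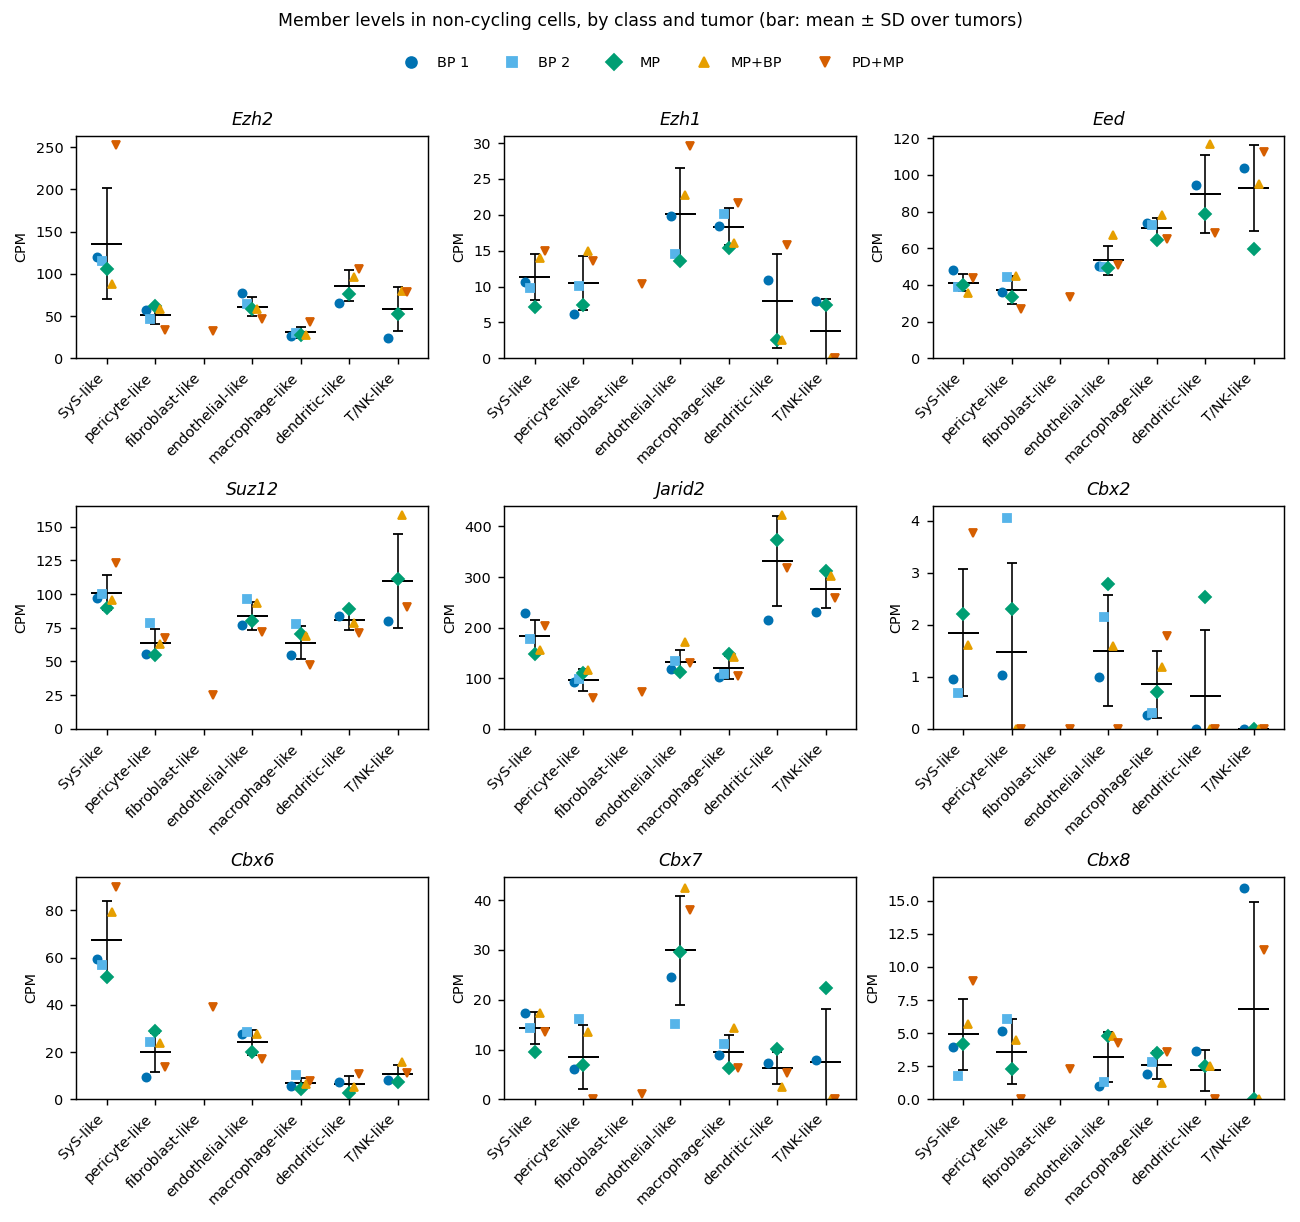
Levels of the 9 members in non-cycling cells, as scaled UMIs (CPM, linear axes from 0), by cell class, with 1 point per tumor and horizontal and vertical bars for the mean and SD over tumors with at least 20 cells. Among the classes plotted, which leave out mast-like and neutrophil-like cells (at least 20 non-cycling cells in 2 tumors and 1 tumor), Ezh2 and Cbx6 stand highest in the SyS-like class (means of 135.9 and 67.5 CPM), Ezh1 and Cbx7 in the endothelial-like class (20.1 and 29.9), and Eed and Suz12 in the T/NK-like class (92.8 and 110.0). Among classes with 4 or 5 tumors, the gap to the next mean exceeded the larger SD for Cbx6 and Cbx7. It did not for Ezh2, Ezh1, Eed and Suz12, and in MP+BP dendritic-like Ezh2 (96.6 CPM) stood above the SyS-like value (87.5).

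The ratio of Ezh2 to Ezh1 UMIs was compared within each sum of cells, where depth cancels. It is a ratio of captured ends and not of molecules, since the 2 transcripts need not be captured alike. In non-cycling SyS-like cells it was 11.3 in BP 1, 11.7 in BP 2, 14.8 in MP, 6.24 for MP+BP and 16.9 for PD+MP. In macrophage-like cells it ran from 1.43 to 1.96, in endothelial-like cells from 1.57 to 4.41 and in stromal-like cells from 2.81 to 9. The stromal-like ratios rest on between 5 and 16 Ezh1 UMIs. The lowest endothelial-like ratio, that of PD+MP, rests on 7 Ezh1 and 11 Ezh2 UMIs. The macrophage-like and endothelial-like ratios lay below all SyS-like ratios, whereas the stromal-like ratios overlapped them. The mean log2 difference was 1.22 ± 0.80 (SD, n = 5) from stromal-like, 1.89 ± 0.88 from endothelial-like and 2.79 ± 0.52 from macrophage-like cells. Each difference was above 0 in 5 of 5 tumors. The exact two-sided sign-flip permutation test gave p = 0.0625 for each, the smallest that 5 pairs allow, and 0.0625 after adjustment over the 4 ratios tested, so this design could not reach 0.05. In cycling SyS-like cells the ratio rose to between 28.3 and 51.5, a mean log2 difference of 1.65 ± 0.33 from non-cycling cells of the same tumor (exact permutation p = 0.0625). Cycling macrophage-like cells reached 6.92 to 15.25 and cycling endothelial-like cells 9.46 to 14.25, all below the cycling SyS-like ratios. The cycling endothelial-like ratios leave out PD+MP and rest on 5 Ezh1 UMIs in BP 2 and 4 in MP+BP. The cycling macrophage-like ratio of MP+BP also rests on 4.

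**Figure D2:**
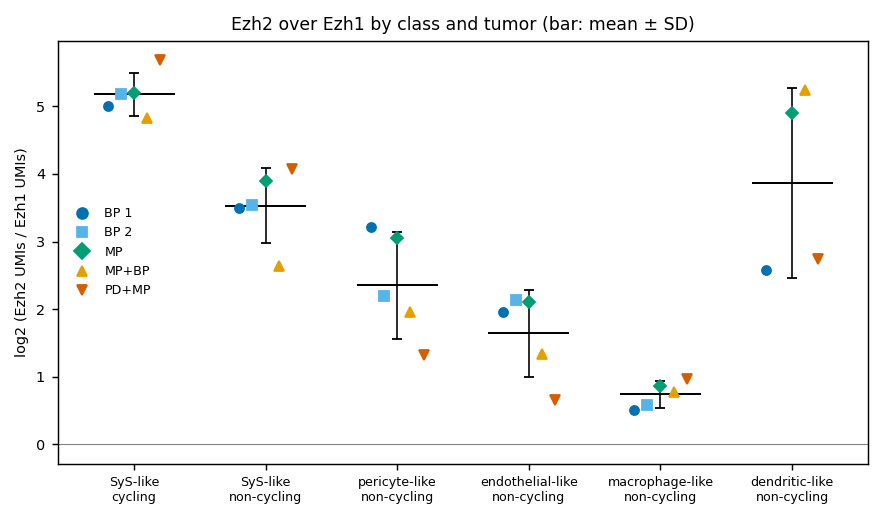
Ratio of Ezh2 to Ezh1 UMIs (log2 axis) by cell class and cycle state, with 1 point per tumor and bars for the mean and SD over tumors with UMIs of both genes. Cycling SyS-like cells have the highest mean (log2 ratio of 5.18), with non-cycling SyS-like cells at 3.53 and macrophage-like cells at 0.74. The dendritic-like mean of 3.87 is above that of non-cycling SyS-like cells, and its points rest on 6 or fewer Ezh1 UMIs each.

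Of the core subunits, neither Eed nor Suz12 was called higher in SyS-like cells than in any comparator with TMM scaling, which centers most genes on no change. Eed was higher in immune and endothelial-like cells: non-cycling SyS-like cells measured 48.3, 39.0, 39.7, 35.9 and 43.6 CPM in BP 1, BP 2, MP, MP+BP and PD+MP, and macrophage-like cells 73.7, 72.8, 64.5, 78.2 and 64.9 CPM. The macrophage-like values lay above all SyS-like values, and Eed was lower in SyS-like cells by 1.39 ± 0.14 on the log2 scale (adjusted p = 7.9e-06, edgeR). Against endothelial-like cells, at 49.0 to 67.4 CPM, Eed was lower by 0.67 ± 0.17 (adjusted p = 0.0078, edgeR). Scaled by total counts only, that difference was -0.38 and no longer called, and the call was also lost without the filter on low counts. Against stromal-like cells it was -0.17 ± 0.17 (adjusted p = 0.50, edgeR).

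Suz12 measured 97.1, 100.3, 89.5, 95.9 and 123.1 CPM in the non-cycling SyS-like cells of the 5 tumors in the same order. The stromal-like values were 57.3, 79.0, 54.7, 63.3 and 31.4 CPM, below all SyS-like values, yet the fitted difference of 0.57 ± 0.21 (adjusted p = 0.078, edgeR) missed the threshold. It passed when scaled by total counts only, without the tumor block or with cycling cells included. The endothelial-like (71.7 to 96.1 CPM) and macrophage-like (47.6 to 77.7 CPM) values gave -0.051 ± 0.15 and 0.070 ± 0.17 (adjusted p = 0.80 and 0.73, edgeR). The macrophage-like values also lay below all SyS-like values, and scaled by total counts only that difference was 0.69 and was called (adjusted p = 0.0038, edgeR).

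Jarid2 was higher in SyS-like than in stromal-like cells and highest in dendritic-like and T/NK-like cells. The SyS-like values were 228.0, 178.1, 148.7, 155.9 and 202.5 CPM in BP 1, BP 2, MP, MP+BP and PD+MP, and the stromal-like values 98.3, 96.8, 110.5, 114.7 and 70.6 CPM. The log2 fold change was 0.60 ± 0.19 (adjusted p = 0.048, edgeR). Of 15 alternatives 7 lost this call, with adjusted p up to 0.16 (edgeR). These were the fits without BP 1, BP 2, MP+BP or PD+MP. The rest were doublets kept, at least 1500 genes per cell and SyS-like sums thinned. Against endothelial-like cells Jarid2 differed by 0.16 and was not called (adjusted p = 0.46, edgeR), but it was called when scaled by total counts only (adjusted p = 0.039, edgeR). Against macrophage-like cells the call depended on scaling: the CPM means were 182.6 ± 32.9 and 120.9 ± 22.8 (SD, n = 5), the fit with TMM scaling gave -0.011 ± 0.19 (adjusted p = 0.96), and scaling by total counts only gave 0.60 (adjusted p = 0.014), both in edgeR. Dendritic-like cells averaged 332.0 ± 88.9 CPM (SD, n = 4) and T/NK-like cells 276.1 ± 37.5 CPM (n = 4). The gap from T/NK-like down to SyS-like cells, 93.4 CPM, was larger than either SD. The T/NK-like sums held between 23 and 42 cells per tumor. Non-cycling T/NK-like cells had a median of 2802 UMIs and dendritic-like cells 5344, against 8229 in SyS-like cells. The part of depth in this order was not tested.

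Of the chromobox readers, Cbx6 was the member higher in SyS-like cells than in every comparator. It measured 59.6, 57.0, 51.7, 79.5 and 89.9 CPM in non-cycling SyS-like cells of BP 1, BP 2, MP, MP+BP and PD+MP. The stromal-like values were 11.8, 29.6, 28.8, 29.0 and 35.3 CPM, the endothelial-like values 27.8, 28.3, 19.9, 27.6 and 16.9 CPM, and the macrophage-like values 5.71, 10.2, 4.21, 6.57 and 7.89 CPM. None overlapped the SyS-like range. The log2 fold changes were 1.06 ± 0.24 (adjusted p = 0.011), 1.06 ± 0.18 (adjusted p = 7.6e-04) and 2.65 ± 0.21 (adjusted p = 9.4e-07, all edgeR), and all 3 calls held under every alternative tried for them.

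Cbx7 was highest in endothelial-like cells. SyS-like values were 17.3, 14.3, 9.55, 17.3 and 13.5 CPM and endothelial-like values 24.5, 15.02, 29.5, 42.4 and 38.0 CPM for BP 1, BP 2, MP, MP+BP and PD+MP, with the endothelial-like value higher in 5 of 5 tumors although the ranges overlapped. The difference was -1.26 ± 0.27 on the log2 scale (adjusted p = 0.0030, edgeR). Against stromal-like and macrophage-like cells Cbx7 differed by 0.61 ± 0.43 and 0.041 ± 0.21 (adjusted p = 0.34 and 0.88, edgeR). Scaled by total counts only, the macrophage-like difference was 0.66 and was called (adjusted p = 0.016, edgeR). Apobec3 overlaps Cbx7 on the opposite strand.

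Cbx2 and Cbx8 were close to the detection limit. Cbx2 ran from 0.70 to 3.77 CPM and Cbx8 from 1.73 to 8.97 CPM in non-cycling SyS-like cells, and no class stood apart from its neighbor in level by more than the larger SD. Cbx2 differed by 0.12 ± 0.90, -0.64 ± 0.47 and 0.54 ± 0.46 from stromal-like, endothelial-like and macrophage-like cells (adjusted p = 0.94, 0.28 and 0.33, edgeR). For Cbx8 the differences were 0.004 ± 0.55, 0.24 ± 0.39 and 0.17 ± 0.41 (adjusted p = 0.998, 0.62 and 0.74, edgeR). The stromal-like sums held 7 UMIs of Cbx2 and 18 of Cbx8 in all 5 tumors. Scaled by total counts only, Cbx2 was higher than in macrophage-like cells by 1.15 (adjusted p = 0.038, edgeR).

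All 9 members passed the filter on low counts in each comparison. Against stromal-like cells 3 of 9 were called higher and 0 lower, beside 15.4% and 14.3% of the 15222 genes tested. Against endothelial-like cells 2 were higher and 3 lower, beside 29.0% and 24.5% of 15242 genes, and against macrophage-like cells 2 were higher and 2 lower, beside 35.9% and 29.0% of 15059 genes. The median log2 fold change of the members was 0.57, -0.051 and 0.070 in the 3 comparisons, beside 0.12, 0.12 and 0.16 over all genes tested. With scaling by total counts only, the medians over all genes were 0.41, 0.41 and 0.78, and the higher share of all calls rose from 51.8%, 54.2% and 55.3% to 71.3%, 68.3% and 76.4%. The TMM-scaled log2 fold change of each member was below its value with total counts only in all 3 comparisons, so members higher in SyS-like cells differ less, and members lower there more, than the CPM values given above.

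**Figure D3:**
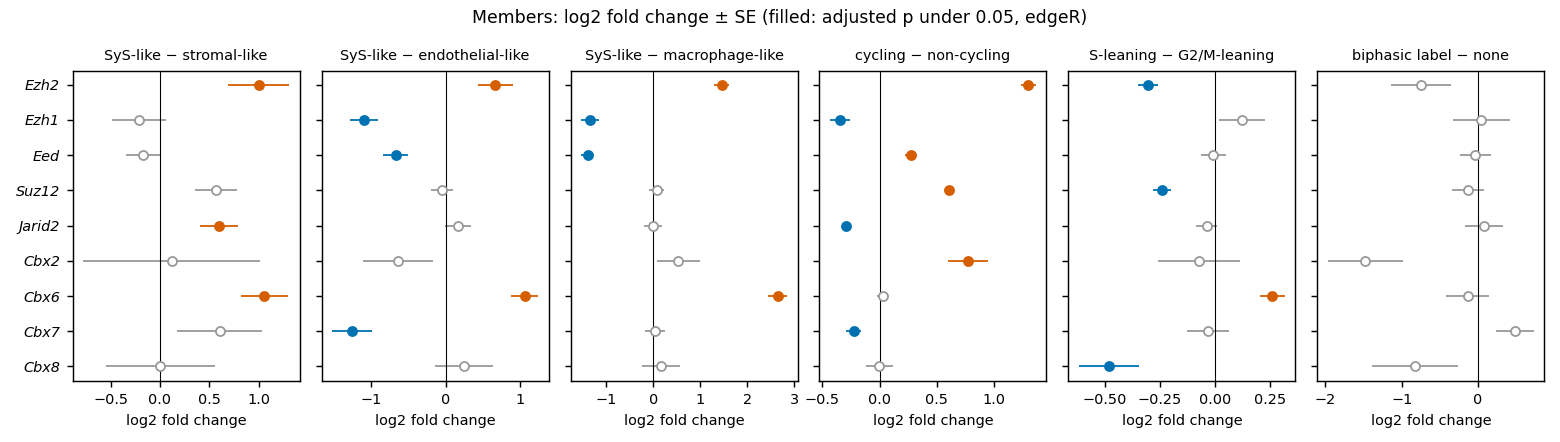
Fitted log2 fold changes of the 9 members with their SE in the 6 comparisons (edgeR, TMM scaling), with filled points for adjusted p under 0.05 and the horizontal scale set per panel. Ezh2 is filled in the first 5 panels and Cbx6 in 4 of them, Ezh2 changes sign between the cycling panel (1.30) and the S-leaning panel (-0.30), and no point is filled in the panel of the biphasic label.

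Cycling and non-cycling SyS-like cells of the same tumors differed in 7 of 9 members. Members of different roles, 4 in all, rose with cycling: Ezh2, Suz12, Eed and Cbx2. Jarid2, Ezh1 and Cbx7 fell. These counts, 4 higher and 3 lower, stand beside 17.3% and 23.9% of the 18318 genes tested. None of the members is in the lists that set the cycle state, but cycling cells were also deeper, with a median of 11592 UMIs against 8229 in non-cycling cells. CPM divides by depth, and the part of depth beyond that was not tested.

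Ezh2 rose in every tumor. Cycling cells measured 263.5 CPM in BP 1, 340.8 in BP 2, 241.6 in MP, 266.1 for MP+BP and 591.7 for PD+MP, against the non-cycling values above. The lowest cycling value, 241.6 CPM in MP, was above every non-cycling value other than the 252.3 CPM of PD+MP. The log2 fold change was 1.30 ± 0.07 (adjusted p = 3.4e-07, edgeR). Suz12 followed, with 141.2, 157.2, 143.6, 168.2 and 187.3 CPM in cycling cells, all above the highest non-cycling value of 123.1, and a log2 fold change of 0.61 ± 0.04 (adjusted p = 5.1e-06, edgeR).

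Eed rose less, to 55.6, 47.7, 51.3, 51.1 and 51.9 CPM, by 0.28 ± 0.05 on the log2 scale (adjusted p = 0.0022, edgeR). Cbx2 rose in 5 of 5 tumors from its low level, to 2.32, 1.78, 4.30, 2.77 and 3.94 CPM, a log2 fold change of 0.77 ± 0.17 (adjusted p = 0.0060, edgeR). In PD+MP the non-cycling value was already 3.77 CPM.

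Jarid2, the accessory subunit, moved the other way, to 200.3, 162.8, 123.8, 137.8 and 147.1 CPM in cycling cells. It fell by 0.29 ± 0.04 on the log2 scale (adjusted p = 2.6e-04, edgeR), with the cycling value lower in every tumor. Ezh1 fell by 0.35 ± 0.09 (adjusted p = 0.011, edgeR), to 8.23, 9.399, 6.61, 9.398 and 11.5 CPM. Cbx7 fell by 0.23 ± 0.07 (adjusted p = 0.021, edgeR), to 15.7, 13.2, 8.89, 13.5 and 11.995 CPM, and this call was lost with DESeq2, with scaling by total counts only, without BP 1 or MP+BP and without the tumor block. Cbx6 and Cbx8 differed by 0.027 ± 0.05 and -0.004 ± 0.12 (adjusted p = 0.69 and 0.99, edgeR).

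**Figure D4:**
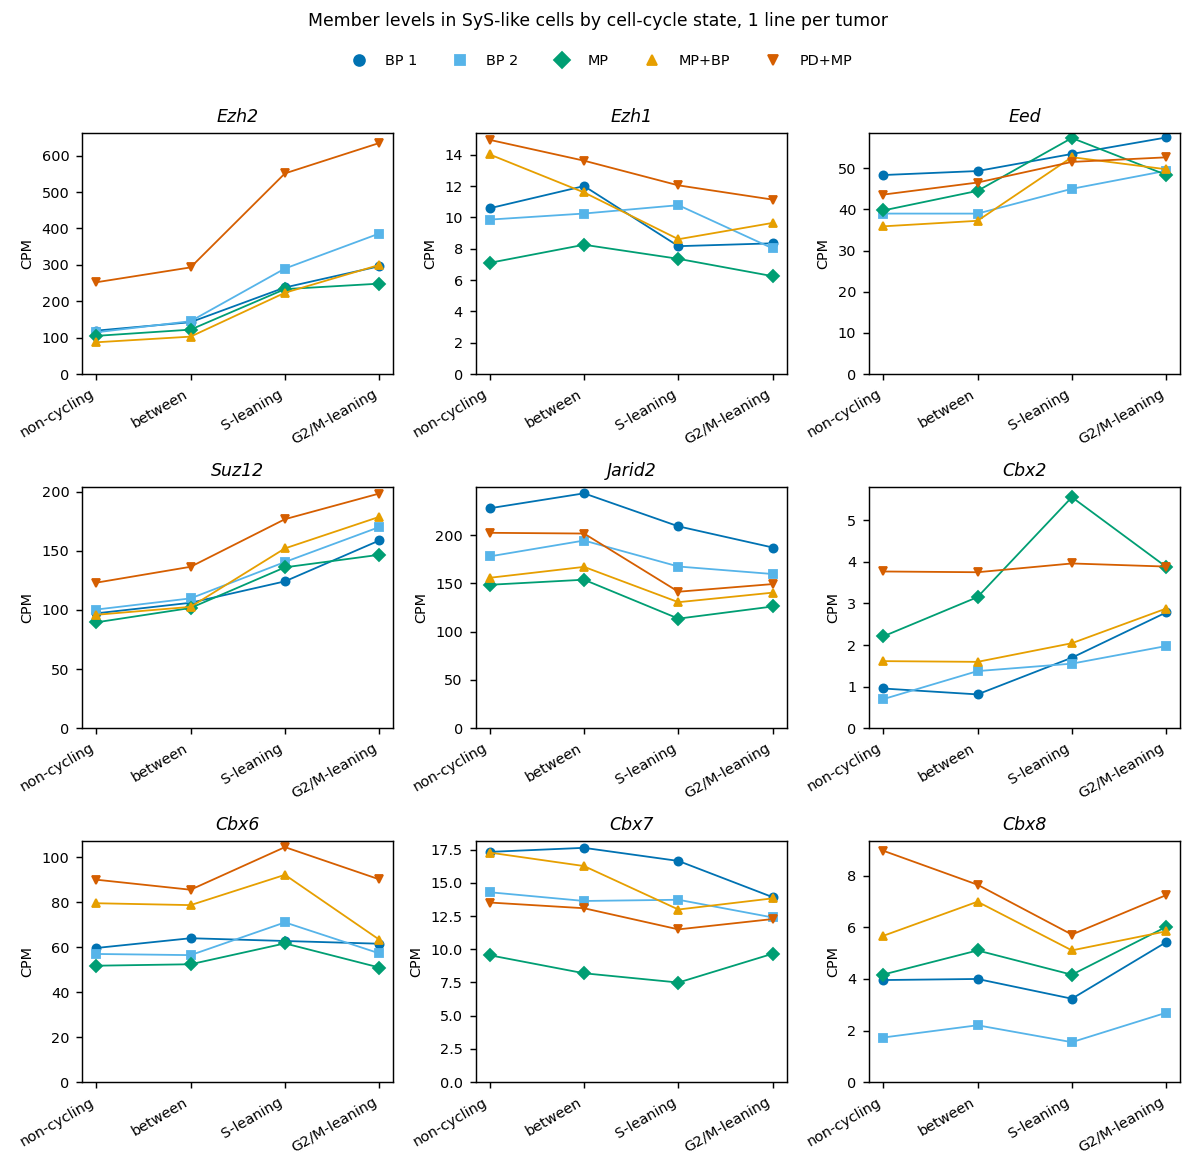
Levels of the 9 members in SyS-like cells (CPM, linear axes from 0) in non-cycling cells, cells between the thresholds, S-leaning and G2/M-leaning cycling cells, with 1 line per tumor. Ezh2 and Suz12 climb from left to right in all 5 tumors, Jarid2 is lower in cycling cells, and the PD+MP line stands above the others for Ezh2 in all 4 states.

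Cycling cells were split by the list with more UMIs, giving 3465 S-leaning and 4431 G2/M-leaning cells. In S-leaning cells 44 of 44 G2/M-list genes were called lower (median log2 fold change -2.07). Of 33 S-list genes 23 were called higher and 1 lower (0.513), so the 2 sides differed more in the G2/M list. Both lists set the split, so these counts describe it and are no test. Ezh2 and Suz12 were higher in G2/M-leaning cells. Ezh2 measured 238.1 and 296.4 CPM in S-leaning and G2/M-leaning cells of BP 1, 290.0 and 386.2 in BP 2, 233.5 and 248.5 in MP, 223.6 and 299.9 in MP+BP, and 551.3 and 634.7 in PD+MP. The S-leaning value was lower in 5 of 5 tumors, by 0.30 ± 0.05 on the log2 scale (adjusted p = 1.6e-04, edgeR). With 8 list UMIs as the threshold, or with the state read from unthinned cells, this call was lost and the difference came as close to 0 as -0.078. Suz12 was lower in S-leaning cells by 0.24 ± 0.04 (adjusted p = 4.8e-04, edgeR).

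Cbx8 was also lower in S-leaning cells, by 0.48 ± 0.14 (adjusted p = 0.017, edgeR). It rested on between 19 and 104 UMIs per S-leaning sum, and it was lost with DESeq2 and without either BP tumor. Cbx6 was the member higher in S-leaning cells: it measured 62.7 and 61.5 CPM in S-leaning and G2/M-leaning cells of BP 1, 71.0 and 57.2 in BP 2, 61.6 and 50.9 in MP, 92.1 and 63.3 in MP+BP, and 104.4 and 90.1 in PD+MP. Its difference was 0.26 ± 0.06 (adjusted p = 0.0038, edgeR) and stood under all alternatives but the fit without the tumor block. Eed, Ezh1, Jarid2, Cbx2 and Cbx7 were not called, with differences between -0.072 and 0.12. With 8 list UMIs as the threshold Jarid2 was called lower, by 0.29 (adjusted p = 2.2e-04, edgeR). The members called, 1 higher and 3 lower, stand beside 13.7% and 13.2% of the 15831 genes tested.

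Because Ezh2 and Suz12 moved together with the cycle while Ezh1 moved the other way, their promoters were read for 2 kinds of short word known from cell-cycle genes. RefSeq windows of 300 bases, 250 before and 50 after each start on GRCm38.p6, matched 8 of 9 members (Cbx2 had no entry). The words TTTGGCGC, TTTCCCGC, TTTGCCGC and TTTCGCGC, which E2F factors are known to bind, were searched on both strands and occurred in 744 of 32851 promoters (2.26%). Ezh2 held 1, beginning 3 bases after the start, Suz12 held 1, beginning 219 bases before the start, and Ezh1, Eed, Jarid2, Cbx6, Cbx7 and Cbx8 held none. The words TTTGAA and TTCGAA, the cell-cycle genes homology region, occurred in 19.2% of promoters, with 2 in Eed, 1 in Suz12, 1 in Cbx7 and none in the others. The 3 windows are those of Ezh2 (chr6:47594981-47595280, minus strand), Suz12 (chr11:79992856-79993155, plus strand) and Ezh1 (chr11:101226414-101226713, minus strand), shown 5′ to 3′ on the strand of the gene because these members bear the opposite cycle patterns, with the E2F word in capitals.
Ezh2: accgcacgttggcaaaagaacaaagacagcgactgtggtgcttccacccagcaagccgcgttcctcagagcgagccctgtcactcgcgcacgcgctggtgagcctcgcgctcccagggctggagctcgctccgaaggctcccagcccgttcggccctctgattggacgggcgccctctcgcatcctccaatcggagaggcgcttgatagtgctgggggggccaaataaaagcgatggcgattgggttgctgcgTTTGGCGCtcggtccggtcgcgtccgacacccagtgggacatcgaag
Suz12: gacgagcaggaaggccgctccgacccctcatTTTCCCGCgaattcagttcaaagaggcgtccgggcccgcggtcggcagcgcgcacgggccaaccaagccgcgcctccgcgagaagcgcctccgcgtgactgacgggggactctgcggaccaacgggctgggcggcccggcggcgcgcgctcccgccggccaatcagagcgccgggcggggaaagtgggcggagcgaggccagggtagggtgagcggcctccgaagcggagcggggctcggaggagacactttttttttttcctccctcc
Ezh1: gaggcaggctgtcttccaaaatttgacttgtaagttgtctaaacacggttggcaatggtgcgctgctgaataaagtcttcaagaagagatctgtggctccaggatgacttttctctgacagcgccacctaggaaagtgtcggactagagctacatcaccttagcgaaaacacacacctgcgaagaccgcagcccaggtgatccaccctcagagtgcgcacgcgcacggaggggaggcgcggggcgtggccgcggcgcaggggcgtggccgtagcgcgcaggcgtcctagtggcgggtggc
A match is a run of letters in the window and was not tested as a binding site.

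PD+MP held the most Ezh2 of the 5 tumors in either state. Its 252.3 CPM in non-cycling SyS-like cells (exact Poisson interval 244.7 to 260.0, which covers counting error only) compared with between 87.5 and 119.5 in the other 4, and its 591.7 CPM in cycling cells with between 241.6 and 340.8. PD+MP is a single tumor, so the label and the tumor cannot be told apart and no test was made. Its non-cycling cells also held the highest sum of S-list genes, 587.6 CPM against between 426.3 and 494.3, and the highest G2/M sum, 302.5 against between 186.4 and 283.0, and their part in the Ezh2 level was not tested. Among the 17 SyS-like clusters with at least 50 non-cycling cells, 4 held the highest Ezh2 in their non-cycling cells, at 291.2, 288.0, 180.7 and 159.6 CPM, against between 73.2 and 149.0 in the other 13. Cells of PD+MP made up 100%, 99.4%, 99.9% and 70.8% of these 4 clusters in the same order, which thus largely restate the level of that tumor. Across the same clusters Cbx6 varied from 47.7 to 108.9 CPM and Suz12 from 73.4 to 140.2, while Jarid2 ran from 117.1 to 356.4. The 4 clusters highest in Jarid2, at 356.4, 348.2, 325.7 and 254.8 CPM, were the shallowest. Over all their cells the median depths were 2589, 2950, 2308 and 2535 UMIs, against at least 5512 in the rest. The part of depth in these Jarid2 levels was not tested.

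Tumors with BP in their label (3) were set against those without (2) in non-cycling SyS-like cells. No gene of 19176 was called in either direction (0% higher and 0% lower in edgeR), 1698 had an unadjusted p under 0.05, and DESeq2 called 489 genes with no member among them. Cbx2 measured 0.95, 0.70 and 1.61 CPM in BP 1, BP 2 and MP+BP against 2.21 in MP and 3.77 in PD+MP, with a log2 fold change of -1.48 ± 0.49 (adjusted p = 0.51, edgeR). Cbx7 measured 17.3, 14.3 and 17.3 against 9.55 and 13.5 CPM (0.48 ± 0.25, adjusted p = 0.61, edgeR). Ezh2 gave -0.74 ± 0.39 (adjusted p = 0.61, edgeR) and turned to 0.012 without PD+MP. The other 6 members lay between -0.83 ± 0.56 for Cbx8 and 0.078 ± 0.25 for Jarid2. Whether the class and cycle differences themselves varied with the label was tested for each member in the 5 other comparisons, and the lowest adjusted p of those 45 interaction terms was 0.60 (edgeR). Groups of 3 and 2 tumors leave wide intervals, so these p-values do not show that the labels are alike.

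The rest of the 2 complexes was read from lists of 9 further PRC2 genes, 9 further canonical PRC1 genes and 2 demethylases of the PRC2 mark. Bmi1, a PCGF subunit of PRC1, was lower in SyS-like cells than in each comparator. It averaged 1.92 ± 0.46 CPM (SD, n = 5) in non-cycling SyS-like cells against 17.7 ± 5.9 in stromal-like, 38.2 ± 7.2 in endothelial-like and 8.67 ± 2.88 in macrophage-like cells, lower in SyS-like cells in 5 of 5 tumors each time. The log2 differences were -3.49 ± 0.32, -4.59 ± 0.19 and -2.78 ± 0.28 (adjusted p = 1.5e-04, 9.5e-08 and 6.5e-06, edgeR), and they were called under every alternative. Scml2, a PRC1-associated polycomb protein, went the other way, with 2.78 ± 0.53, 2.96 ± 0.46 and 2.97 ± 0.39 (adjusted p = 0.0053, 4.0e-04 and 5.7e-05, edgeR). Phc1, a polyhomeotic subunit, was higher in the 3 comparisons by 1.05, 0.82 and 1.74, and its relative Phc2 lower by 0.83, 0.80 and 1.18. Against stromal-like cells the Phc1 call was kept under 12 of 15 alternatives and the Phc2 call under 9 of 15, and against endothelial-like cells the Phc1 call under 10 of 14.

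Of the 9 PRC1 genes, 4 were higher and 2 lower than in stromal-like cells, 3 and 3 than in endothelial-like cells, and 3 and 2 than in macrophage-like cells. Over all genes tested 15.4% and 14.3%, 29.0% and 24.5%, and 35.9% and 29.0% were higher and lower, so that the counts against endothelial-like and macrophage-like cells are near the share of all genes. The PRC1 genes had median log2 fold changes of 0.428, 0.265 and 0.284. Pcgf2, the other PCGF subunit of canonical PRC1 here, was higher than in macrophage-like cells by 2.05 ± 0.27 (adjusted p = 5.3e-05, edgeR), and Ring1, a ubiquitin ligase subunit, higher than in endothelial-like cells by 1.17 ± 0.21 (adjusted p = 0.0010, edgeR). Phf19 was below the filter between classes. Of the other 8 PRC2 genes, 2 were higher and 0 lower than in stromal-like cells (Epop by 1.41 and Mtf2 by 0.82, both accessory subunits). Epop (1.94 and 1.16) and the histone-binding Rbbp7 (1.07 and 1.30) were higher, and Lcorl (-1.48 and -1.20) and Lcor (-0.39 and -0.85) lower, than in endothelial-like and macrophage-like cells. The Lcor call against endothelial-like cells was kept under 2 of 14 alternatives, and the Mtf2 call under 11 of 15. Of the 2 demethylases, Kdm6b was lower than in macrophage-like cells by 0.92 ± 0.15 (adjusted p = 3.4e-04, edgeR).

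With cycling, 7 of the 9 PRC2 genes rose and 1 fell, beside 17.3% and 23.9% of all genes tested. Phf19, an accessory subunit of the Polycomb-like family, rose by 2.18 ± 0.28 on the log2 scale (adjusted p = 2.4e-04, edgeR), from a mean of 1.87 ± 1.15 CPM to 8.72 ± 1.44. Lcorl rose by 0.79 and Rbbp4 by 0.41, and Phf1, a relative of Phf19, fell by 0.54. Ncapg, a condensin gene, overlaps Lcorl on the opposite strand. Of the PRC1 genes 3 rose and 3 fell: Scml2 rose by 1.33 ± 0.07 (adjusted p = 2.7e-07, edgeR) and Bmi1 by 0.71 ± 0.11 (adjusted p = 9.0e-04, edgeR), while Ring1 fell by 0.32 and Phc3 by 0.25. Both demethylases fell, Kdm6b by 0.30 and Kdm6a by 0.18. In S-leaning against G2/M-leaning cells 3 PRC2 genes (Phf19 -0.71, Lcorl -0.52, Rbbp7 -0.12) and 3 PRC1 genes (Bmi1 -1.12, Scml2 -0.44, Pcgf2 -0.20) were lower, 0 of either list were higher, and Kdm6a was higher by 0.18, beside 13.2% lower and 13.7% higher of all genes. The Rbbp7 and Pcgf2 calls were kept under 6 and 8 of 14 alternatives. With the biphasic label none of these genes was called.

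**Figure D5:**
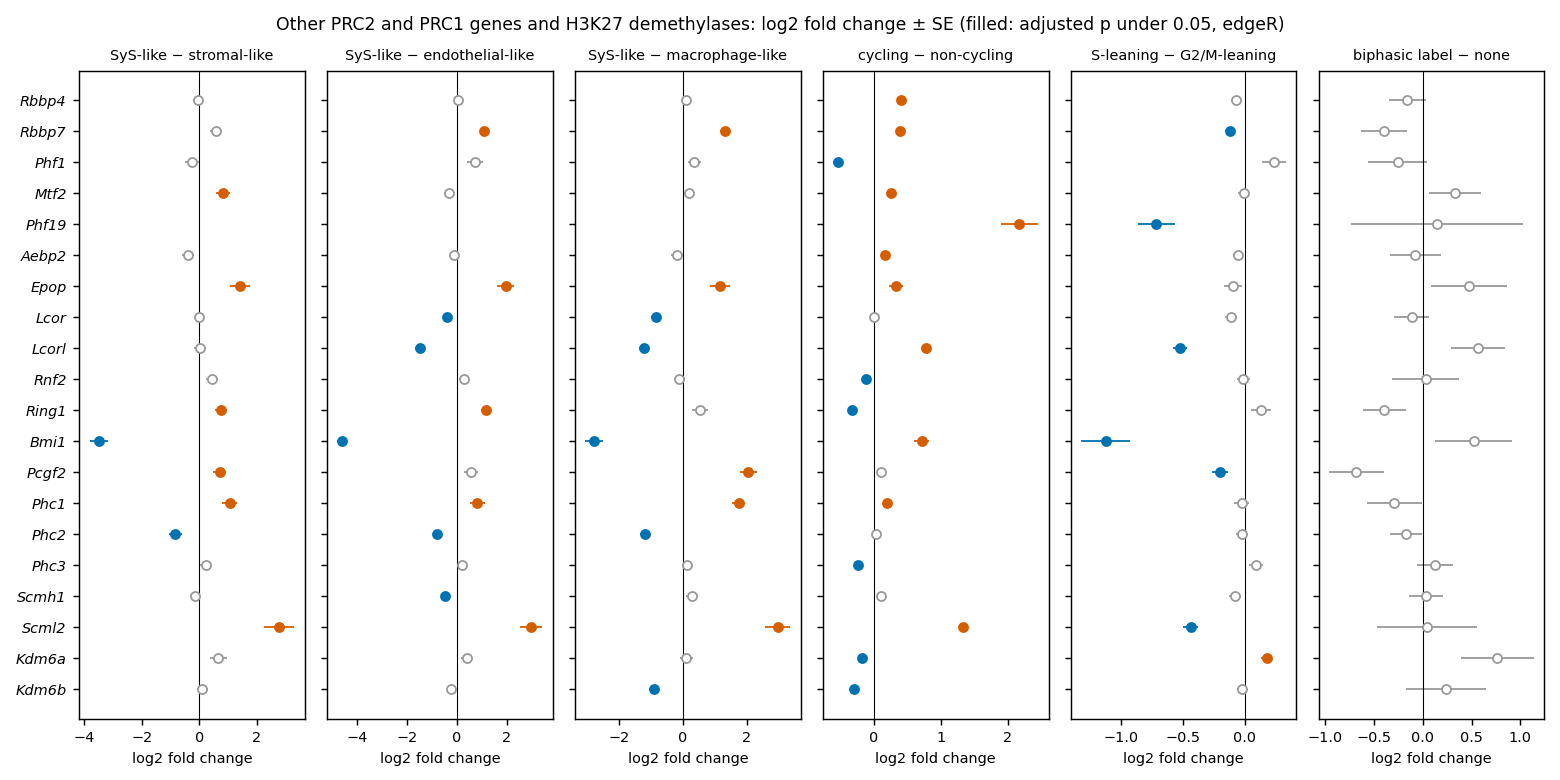
Fitted log2 fold changes with SE of the other PRC2 genes, the other canonical PRC1 genes and both H3K27 demethylases in the 6 comparisons (edgeR), with filled points for adjusted p under 0.05 and the horizontal scale set per panel. Bmi1 sits far to the left in the 3 class panels (-3.49, -4.59 and -2.78) and Scml2 to the right (2.78, 2.96 and 2.97), and Phf19 is the furthest to the right with cycling (2.18), where it was tested.

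The share of cells with a UMI depends on depth, so it is given before and after thinning each cell to 1500 UMIs, which left out 863 of 30735 SyS-like and 22 of 170 neutrophil-like cells. Ezh2 had a UMI in 63.2% of SyS-like cells and 23.3% after thinning, against 14.1% and 7.56% in neutrophil-like cells (median depths of 8775 and 1879 UMIs). For Cbx6 the shares were 43.5% and 9.24% against 6.47% and 1.94%. Cbx2 had a UMI in 2.62% of SyS-like cells and 0.35% after thinning, not above the thinned neutrophil-like share of 0.46%. Neutrophil-like cells are no background for Suz12, Eed and Jarid2: in BP 1, the tumor with at least 20 of them non-cycling, they measured 118.5, 68.6 and 174.6 CPM, where the SyS marker share described next would give 7.17, 3.57 and 16.8. The thinned shares of these genes were 15.2% against 17.2%, 6.27% against 8.34% and 22.0% against 21.0%.

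RNA from SyS-like cells in other droplets was measured by 3 SyS markers, Adgrb3, Reln and Nxph1. In non-cycling cells their summed level was between 0.66% and 3.68% of the SyS-like level in endothelial-like cells, between 0.97% and 2.95% in macrophage-like cells and between 0.69% and 12.4% in stromal-like cells. Ezh2 stood at 16.8% to 31.4% of its SyS-like level in macrophage-like cells and Cbx6 at 8.13% to 17.9%, above the marker share in 5 of 5 tumors. In the other direction, the macrophage list summed to between 29.2 and 56.7 CPM in SyS-like cells against at least 12299 in macrophage-like cells, and the endothelial list to between 59.1 and 187.8 against at least 6008. None of the markers of these 2 lists was at 0 in SyS-like cells.

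Over the 31 sums of class and tumor with at least 50 cells, which share libraries, the genes most correlated with each member were found among 11970 genes on log2(CPM + 1), as a description. For Ezh2 they were Tmpo (Pearson r = 0.83), Kif11 (0.81) and Cdca3 (0.79), of which Kif11, a mitotic kinesin, and Cdca3 are known from dividing cells. For Suz12 they were Pum2 (0.84) and Nipbl (0.83), for Jarid2 Elmsan1 (0.88), Phactr2 (0.87) and Nfil3 (0.86), and for Cbx6 Praf2, Ttc3 and Zfp275 (0.88 each). Eed was most like Kynu (0.87), Rab43 (0.86) and the immunoproteasome subunit Psmb9 (0.86), Cbx7 most like Tial1 (0.84), Macf1 (0.83) and Ypel2 (0.81), and Ezh1 most like Abhd15 (0.70), Zfand2a (0.70) and Inpp5k (0.64). Among the members themselves, Ezh2 and Suz12 had r = 0.57, Ezh2 and Ezh1 -0.35, and Eed and Cbx6 -0.57.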

How the data were processed

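The deposited files are filtered matrices of UMI counts per gene and cell, which the authors made with the Chromium 3′ v3.1 kit and Cell Ranger (7.2.0 in the file headers, build mm10 per the labels). Whether intronic reads were counted is not given in the sources used here. Cells with fewer than 750 genes (8488), over 25% mitochondrial UMIs (666) or a doublet call (2957, by scrublet in scanpy 1.11.5 at the share expected for the number of cells, since the automatic threshold marked 622) were removed. Cells were clustered on 3000 genes (30 components, 20 neighbors, Leiden resolution 1) with the members, their lists and the cycle lists left out, and clusters were named from 3 or more fixed markers. The rule for the genes leading a cluster was changed after the first form left large SyS clusters unnamed, and the first form is kept as an alternative chosen after seeing the data. Counts were summed per tumor, class and cycle state and tested with edgeR 4.0.16 (quasi-likelihood, TMM, filterByExpr, tumor as a block, Benjamini-Hochberg adjusted p under 0.05 over all genes tested), with DESeq2 1.42.0, other scalings, filters and left-out tumors as alternatives. The tumor block pairs sums from the same tumor. The 2 BP tumors differed beyond counting noise (median chi-square per gene 5.68 against 0.455 over 20631 genes). Members, lists and named genes (at most 4 called per list and comparison, by size of change, and 3 correlated genes per member) were chosen with earlier results of these data known. Some genes that these rules name, 1 of them on a list, are not reported here and were left out of its counts.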

Additional observations from a re-analysis of the deposited data

Results flagged for a closer look

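Groups of 5 tumors were screened for a highest or lowest value far from the nearest other value, relative to the range, and 7 of 61 were marked where chance marks about 1 in 20 (3.05 of 61).

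PD+MP carried 4 of the 7. Its Ezh2 level was 252.3 CPM in non-cycling SyS-like cells (87.5 to 119.5 in the other tumors) and 591.7 CPM in cycling ones (241.6 to 340.8). Its log2 CPM ratio of SyS-like to endothelial-like cells for Ezh2 was 2.44 (0.60 to 0.84 elsewhere), with 30 endothelial-like cells, and its ratio to stromal-like cells for Suz12 was 1.97 (0.34 to 0.76), with stromal-like cells that were mostly fibroblast-like.

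For Cbx6 the log2 CPM ratio of SyS-like to macrophage-like cells was 2.48 in BP 2 against 3.38 to 3.62 elsewhere. The ratio of cycling to non-cycling SyS-like cells was -0.082 for Cbx6 in MP+BP, where the others were 0.096 to 0.15, and -0.35 for Cbx7 in the same tumor, where the others were -0.17 to -0.10. None of these was given a test of its own.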

How the results depend on the processing

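The 23 called values of members kept their direction under all 325 alternative values, of which 286 also stayed past the threshold and 39 did not. The 31 uncalled values changed sign in 71 of 415 alternatives and passed the threshold with the same sign in 8: Suz12 against stromal-like with total counts only, without the tumor block and with cycling cells included, Suz12, Cbx2 and Cbx7 against macrophage-like and Jarid2 against endothelial-like with total counts only, and Jarid2 in S-leaning cells with 8 list UMIs. Calls of all genes and of members moved by over 1.5 times as follows. Against stromal-like cells 3009 genes were called with the SyS-like sums thinned (4518 in the report), and members called went from 3 to 1 with doublets kept and to 1 with at least 1500 genes per cell. Against macrophage-like cells 8 members were called when scaled by total counts only. Without the tumor block, the cycling comparison called 722 genes and 1 member and the S-leaning comparison 215 genes and 0 members, while DESeq2 called 2604 genes in the latter and 489 in the comparison of the biphasic label. The causes were not tested. Leaving out 1 tumor at a time gave 2904 to 5471 calls and 1 to 2 members against stromal-like, 6890 to 8961 and 4 to 5 against endothelial-like, 8717 to 10715 and 4 to 4 against macrophage-like, 6048 to 6684 and 6 to 7 with cycling, 3037 to 3728 and 3 to 4 in S-leaning cells, and 0 to 157 (157 without MP) and 0 to 0 for the label.

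Uncalled log2 values that changed sign follow. With total counts only, Eed and Ezh1 against stromal-like gave 0.12 and 0.084, Suz12 against endothelial-like 0.24, Jarid2 against macrophage-like 0.60, Cbx8 with cycling 0.039 and Eed in S-leaning cells 0.010. With DESeq2, Cbx8 against stromal-like gave -0.0017, Suz12 against endothelial-like 0.024, Jarid2 against macrophage-like 0.032, Cbx8 with cycling 0.011 and Eed in S-leaning cells 0.0022. With doublets kept, Cbx2 and Cbx8 against stromal-like gave -0.16 and -0.00069, and Suz12 and Cbx7 against macrophage-like -0.064 and -0.057. With cycling cells included, Cbx2 and Cbx8 against stromal-like gave -0.11 and -0.33, Suz12 against endothelial-like 0.12 and Jarid2 against macrophage-like 0.025. With pericyte-like cells alone, Cbx2 and Cbx8 gave -0.37 and -0.18. Without the filter on low counts, Suz12 against endothelial-like gave 0.18, Jarid2 against macrophage-like 0.094 and Cbx8 with cycling 0.011. With the first naming rule, Cbx8 against stromal-like gave -0.011, Suz12 against endothelial-like 0.0014, Jarid2 and Cbx7 against macrophage-like 0.17 and -0.13, Cbx8 with cycling 0.021 and Eed in S-leaning cells 0.0034. With thinned sums Suz12 against endothelial-like gave 0.23, with at least 1500 genes Jarid2 against macrophage-like 0.072, and without the tumor block Cbx7 against macrophage-like -0.00018. With 8 list UMIs, Cbx8 and Cbx6 with cycling gave 0.085 and -0.040, and Eed and Cbx2 in S-leaning cells 0.11 and 0.34. With the state from unthinned cells Eed in S-leaning cells gave 0.060.

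Leaving out tumors moved the following across 0: against stromal-like, Cbx2 from -0.45 to 0.77 and Cbx8 from -0.32 to 0.36; against endothelial-like, Suz12 from -0.13 to 0.024 and Cbx8 from -0.10 to 0.56; against macrophage-like, Suz12 from -0.077 to 0.15, Cbx8 from -0.054 to 0.55, Jarid2 from -0.15 to 0.12 and Cbx7 from -0.047 to 0.15. With cycling, Cbx8 ran from -0.071 to 0.15, and in S-leaning cells Eed from -0.066 to 0.028, Cbx2 from -0.27 to 0.017 and Cbx7 from -0.089 to 0.026. For the label, Ezh2 ran from -1.24 to 0.012, Eed from -0.15 to 0.047, Suz12 from -0.34 to 0.11, Ezh1 from -0.40 to 0.66, Jarid2 from -0.12 to 0.31 and Cbx6 from -0.48 to 0.31. Non-cycling stromal-like cells held 7 UMIs of Cbx2 and 18 of Cbx8 in all.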
